A study of Homo with 4 samples.

Results

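The enzymes and carriers that activate fatty acids, pass them through the carnitine shuttle and oxidise them in mitochondria and peroxisomes were examined as 1 set of 33 genes in IGF2BP3-knockdown H1299 cells. The set was chosen by function, and its genes were found in the deposited transcript table by matching Ensembl gene positions on GRCh38 to RefSeq genes of the same symbol. All 33 were found among the 20263 genes of the table, and 32 of them had enough counts to be among the 13379 genes tested. Transcript counts were summed per gene, and the genes were read in 4 steps, namely activation (5 genes), transport (7), mitochondrial oxidation (15) and peroxisomal oxidation (6).

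H1299 cells are a long-established line from a human non-small cell lung tumour. Cells were infected with lentivirus carrying a control hairpin (shCtrl, 2 libraries, labelled WT) or a hairpin against IGF2BP3 (shIGF2BP3, 2 libraries, labelled IGF2BP3 knockdown), so both groups share the infection and the hairpin vector. The study used stable lines and more than 1 hairpin, and whether the 2 shIGF2BP3 libraries carry the same hairpin is not stated in the sources used here. The libraries are labelled as biological replicates with no word on separate infections, so p-values measure the spread between these libraries. Total counts ran from 29709686 to 34817513. The share of counts on mitochondrially encoded genes was 9.11% and 13.43% for shCtrl, with 11.42% and 17.02% for shIGF2BP3. The targeted gene IGF2BP3 was at 41.1 and 32.9 CPM (counts per 1000000 of the library size scaled by TMM, the trimmed mean of M-values) in shCtrl and at 26.4 and 24.8 CPM in shIGF2BP3, which is 69.1% of the control level in the fit. Its fitted log2 fold change was -0.53 with a standard error of 0.17, and edgeR's quasi-likelihood test gave it an adjusted p of 0.472. Of the epithelial markers, KRT8 and KRT18 were high, while CDH1 and EPCAM were at 0.354 CPM or lower in every library. Mesenchymal markers (VIM, CDH2 and FN1) summed to 4405 and 5089 CPM in shCtrl and to 5288 and 7149 CPM in shIGF2BP3, almost all of it VIM, at 132% of control with an edgeR adjusted p of 0.517. FN1 was lower in both knockdown libraries and CDH2 overlapped, and the part of these markers in the results was not tested. Lung lineage markers (NKX2-1 and SFTPB), adipocyte, blood and endothelial markers summed to at most 0.319 CPM in any library, and fibroblast markers to at most 1.74 CPM. Hepatocyte markers summed to between 14.1 and 19 CPM, nearly all of it SERPINA1, while ALB was at 0 in 3 libraries. In bulk RNA, fewer cells with a transcript and less of it per cell cannot be told apart.

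A long-chain fatty acid is first joined to coenzyme A by an acyl-CoA synthetase. Its acyl group is then moved onto carnitine by CPT1 at the outer mitochondrial membrane, carried across the inner membrane by SLC25A20 and returned to coenzyme A by CPT2. In the matrix, repeated rounds of dehydrogenation, hydration, a further dehydrogenation and thiolysis release acetyl-CoA, and the electrons of the first dehydrogenation pass through ETFA, ETFB and ETFDH to the respiratory chain. Peroxisomes shorten very long and branched chains with their own set of enzymes and hand the products on as carnitine esters.

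None of the tested genes of this set passed the thresholds in shIGF2BP3 against shCtrl cells, in any of the 4 steps. A gene was called where its fold reached 1.5 and its p before adjustment was 0.05 or less. The targeted gene IGF2BP3, lower by a fold of 1.45 at an edgeR p of 0.0244, was itself not called. By this rule 0 of the 32 genes were higher and 0 were lower, where 2.54% of all genes tested were called higher and 2.78% lower (5.32% in either direction). At an adjusted p under 0.05, edgeR's quasi-likelihood test called 0 of the 32 genes and 0% of all genes in either direction, and DESeq2, edgeR's exact test and limma also called 0 of the set. By p alone, with no limit on the fold, 1 gene was higher (DECR1) and 0 were lower, against 5.43% and 5.12% of all genes tested (10.5% in either direction). The fitted value was below 0 for 19 of the 32 genes and for 50.2% of all genes, and the median log2 fold change was -0.07 over the set and 0.00 over all genes. When library totals replaced the TMM factors, 24 of the 32 genes were below 0, the median of the set was -0.153, and the median of all genes was itself -0.081. With totals that leave out the mitochondrially encoded genes, 22 of the 32 were below 0. The median was then -0.103 over the set and itself -0.032 over all genes. The precision was that of 2 libraries per group, with standard errors from 0.12 to 0.63 on the log2 scale. For 17 of the 32 genes (53.1%, where all genes gave 27.9%), the 95% interval of the log2 fold change lay within a fold of 1.5 in both directions.

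By step, activation genes had a median log2 fold change of 0.13 with 1 of 5 below 0. Transport genes had a median of -0.09 with 4 of 6 tested below 0, mitochondrial genes -0.13 with 10 of 15, and peroxisomal genes -0.08 with 4 of 6. The shIGF2BP3 libraries both lay below the 2 shCtrl libraries for 12 of the 32 genes (37.5%) and above them for 7 (21.9%), while 23.5% and 23.3% of all genes tested did so. Of the 12 lower genes 9 were mitochondrial, and in that step 3 genes were higher without overlap and 3 overlapped. Summed over the set, the level was 2009 and 2035 CPM in shCtrl and 1976 and 1975 CPM in shIGF2BP3.

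**Figure D1:**
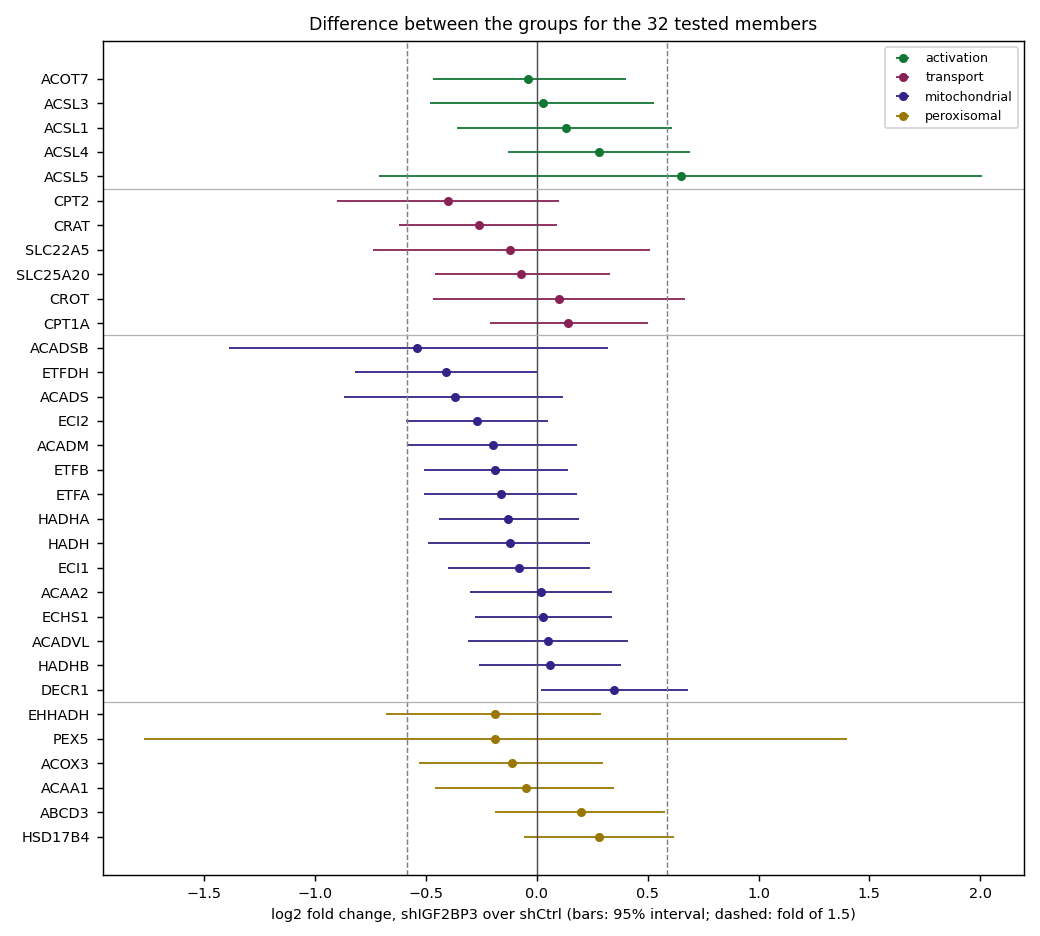
Log2 fold change of shIGF2BP3 over shCtrl for the 32 tested genes, ordered within the 4 steps, with 95% intervals from edgeR's quasi-likelihood fit of 2 libraries per group. Dashed lines mark a fold of 1.5, and the interval of DECR1, from 0.02 to 0.68, is the only one that leaves out 0.

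Levels between genes were compared by FPKM (fragments per kilobase of transcript, scaled to depth), summed per gene and averaged over the 4 libraries. The genes spanned a wide range, from 132.4 FPKM for ACOT7 to 0.0145 FPKM for CPT1C, with 21 of the 33 at 10 FPKM or more and 5 under 2 FPKM. Mitochondrial oxidation held 12 of the 21 high genes, led by ECHS1 at 96.7, ACADVL at 78.8 and ETFB at 77 FPKM. Partners within a complex were at unequal levels. The trifunctional protein subunit HADHA was above its partner HADHB by a ratio of FPKM of 1.58 and 1.57 in shCtrl and 1.49 and 1.32 in shIGF2BP3. ETFB was above ETFA, its partner in the electron transfer flavoprotein, by a ratio of 1.7 and 1.74 in shCtrl and 1.94 and 1.74 in shIGF2BP3. ETFA in turn exceeded ETFDH, the separate membrane enzyme that takes up its electrons, by 10.1 and 7.36 times in shCtrl and by 10.3 and 10.2 times in shIGF2BP3.

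**Figure D2:**
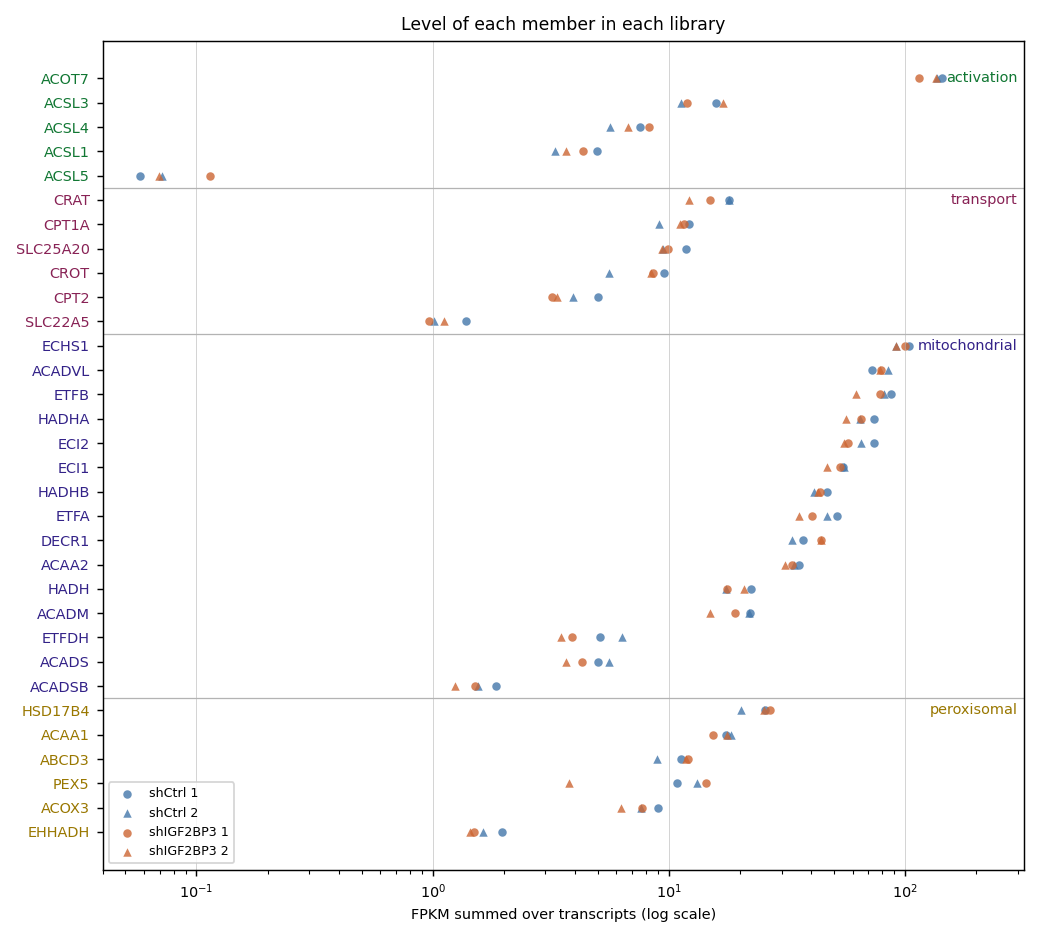
FPKM summed over transcripts, on a log axis, for 32 genes in each of the 4 libraries (circle, replicate 1; triangle, replicate 2), grouped by step. CPT1C, listed at 0 in 3 libraries, is left out; ACOT7 and most mitochondrial genes sit at the right, and ACSL5 lies apart at the left.

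Among the activating genes, the synthetases ACSL3, ACSL4 and ACSL1 were expressed and ACSL5 was close to absent. ACSL3, which is found on the endoplasmic reticulum and lipid droplets, was at 78.2 and 58.7 CPM in shCtrl and at 62 and 77.4 CPM in shIGF2BP3. Its log2 fold change was 0.03 and the groups overlapped. ACSL4, which prefers arachidonic acid and other polyunsaturated chains, was at 41.4 and 33.2 CPM in shCtrl and at 45.5 and 45 CPM in shIGF2BP3. Both knockdown libraries lay above both controls, and edgeR gave a log2 fold change of 0.28 (standard error 0.16) at an adjusted p of 0.548. ACSL1 overlapped between the groups, at 17.1 ± 3.16 CPM (SD, n = 2) in shCtrl and 18.7 ± 0.234 CPM in shIGF2BP3.

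ACSL5 (ENSG00000197142, chromosome 10 from 112374018 to 112428380 on GRCh38) was the only gene of the set with a fitted fold past 1.5. It rested on 8 and 10 counts in shCtrl and 16 and 9 counts in shIGF2BP3, or 0.213 and 0.295 CPM against 0.464 and 0.327 CPM. On the log2 scale the value was 0.65 with a 95% interval from -0.71 to 2.01 (edgeR, adjusted p 0.659), so a difference was not detectable at this depth. ACOT7 (ENSG00000097021, chromosome 1 from 6264269 to 6394391) is a thioesterase that undoes activation by splitting acyl-CoA, and it was the most abundant gene of the set per length. It stood at 233.5 and 294.6 CPM in shCtrl and at 236.3 and 278.4 CPM in shIGF2BP3. The groups overlapped, and edgeR put the difference at -0.04 on the log2 scale (standard error 0.17, adjusted p 0.948).

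In the carnitine shuttle, the entry enzyme and the inner-membrane carrier overlapped between the groups, while CPT2 and CRAT were lower in both knockdown libraries. CPT1A, the regulated entry enzyme inhibited by malonyl-CoA, was at 65 and 56.2 CPM in shCtrl and at 64.6 and 69.2 CPM in shIGF2BP3. Its 95% interval ran from -0.21 to 0.50 on the log2 scale around 0.14. The carnitine-acylcarnitine carrier SLC25A20 was at 22.8 ± 1.94 CPM (SD, n = 2) in shCtrl and 21.8 ± 0.409 CPM in shIGF2BP3. The plasma membrane carnitine transporter SLC22A5 was the least abundant tested gene of this step, at 1.12 FPKM, and overlapped between the groups. CPT1C, a brain isoform, had 0 counts in both shCtrl libraries and in replicate 1 of shIGF2BP3 and 6 counts in replicate 2. A count of 0 allows up to 3 counts, or 0.0798 to 0.0885 CPM in these 3 libraries, for counting error only.

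CPT2, which returns the acyl group to coenzyme A in the matrix, was at 15.7 and 14.1 CPM in shCtrl and at 10.1 and 12.6 CPM in shIGF2BP3. This is -0.40 on the log2 scale (standard error 0.20), and edgeR gave an adjusted p of 0.512. The ratio of CPT1A to CPT2 in FPKM was 2.44 and 2.33 in shCtrl against 3.63 and 3.32 in shIGF2BP3.

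CRAT (ENSG00000095321, chromosome 9 from 129094810 to 129110804) codes for carnitine O-acetyltransferase, which buffers acetyl-CoA by passing acetyl groups to carnitine. It is one of the fatty acid metabolism genes that the study followed by RT-qPCR after IGF2BP3 knockdown. The study reported its level there as markedly lower. In these libraries it was at 46.4 and 50.9 CPM in shCtrl and at 42.3 and 38.6 CPM in shIGF2BP3. Both knockdown libraries were below both controls, at 40.5 ± 2.61 CPM against 48.6 ± 3.16 CPM (SD, n = 2). The fitted difference was -0.26 on the log2 scale, its 95% interval ran from -0.62 to 0.09, and edgeR gave an adjusted p of 0.521. CROT, its peroxisomal relative for medium chains, overlapped between the groups at 23.3 ± 6.26 CPM in shCtrl and 24.9 ± 1.69 CPM in shIGF2BP3 (SD, n = 2).

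In the mitochondrial matrix, ECHS1, HADHB and DECR1 were higher in both knockdown libraries, and ACADM, ACADS, ACADSB, HADHA, HADH, ECI2 and the 3 electron transfer genes were lower in both. The fitted values of ECHS1 and HADHB, 0.03 and 0.06, turned to -0.051 and -0.024 with library totals. ACADVL, which starts the oxidation of very long chains, was at 155.5 ± 17.4 CPM in shCtrl and 160.6 ± 6.15 CPM in shIGF2BP3 (SD, n = 2). ACADM, its medium-chain counterpart, was lower in both knockdown libraries at 40.6 and 40.7 CPM against 50.7 and 42.4 CPM, with an adjusted p of 0.629 by edgeR. It overlaps RABGGTB on the same strand, so part of its counts may be apportioned between the 2 genes.

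ACADS, the short-chain enzyme, was at 10.6 and 13.2 CPM in shCtrl and at 9.36 and 8.97 CPM in shIGF2BP3. The difference was -0.37 on the log2 scale (standard error 0.20), at an adjusted p of 0.520 in edgeR. ACADSB, which acts on short branched chains, had the lowest fitted value of the set, -0.54, and it came from 1 library, with 11.5 and 10.9 CPM in shCtrl against 10.2 and 5.19 CPM in shIGF2BP3. Without replicate 2 of shIGF2BP3 the log2 fold change of ACADSB was -0.134, and without replicate 1 it was -1.103, which passed the fold and p thresholds.

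ECHS1 (ENSG00000127884, chromosome 10 from 133362480 to 133373689), the enoyl-CoA hydratase of the second reaction, had the highest FPKM of the step. Its values were 183.4 and 178.9 CPM in shCtrl and 184.9 and 184.8 CPM in shIGF2BP3. Its fitted value was 0.03 on the log2 scale, with a 95% interval from -0.28 to 0.34 and an edgeR adjusted p of 0.940. The trifunctional protein, which holds the last 3 activities for long chains, was at 242.5 and 235.5 CPM (HADHA) in shCtrl and at 225.2 and 212.6 CPM in shIGF2BP3. HADHB was at 87.1 and 87 CPM in shCtrl and at 87.8 and 93.5 CPM in shIGF2BP3. The adjusted p by edgeR was 0.706 for HADHA and 0.871 for HADHB. The 2 genes lie head to head on chromosome 2 and share 1557 bases on opposite strands. Of the HADHB transcripts only ENST00000448743 reaches that stretch, with 0 counts in both shCtrl libraries and 23 and 0 counts in shIGF2BP3. The strand used in counting is not given in the sources used here, so reads of that stretch cannot be told apart. HADH, the dehydrogenase for shorter chains, and the thiolase ACAA2, which overlaps an unnamed gene on the same strand, had fitted values of -0.12 and 0.02.

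DECR1 (ENSG00000104325, chromosome 8 from 90001405 to 90052092), the 2,4-dienoyl-CoA reductase needed for chains with double bonds at even positions, was the gene with the smallest p of the set. It was at 47.2 and 49.6 CPM in shCtrl and at 59 and 64.5 CPM in shIGF2BP3. Both knockdown libraries lay above both controls by a margin wider than the spread within either group. ECI2 and ETFDH were set apart in this way in the other direction. The difference of DECR1 was a fold of 1.28, or 0.35 on the log2 scale (standard error 0.13), and edgeR gave an adjusted p of 0.472. Before adjustment edgeR's p was 0.0414, and it was above 0.05 with edgeR's exact test, both kinds of library totals, the replicate block, the filtered FPKM fits and each library left out in turn. Its fitted value stayed between 0.271 and 0.423 under all 15 alternatives that gave one. DECR1 overlaps NBN on the other strand, and IGF2BP3 overlaps MALSU1 in this way. In the set 11 genes overlap another gene on the other strand, among them DECR1, CPT2, ECI2, ETFA and ETFDH. The auxiliary enzymes of unsaturated chains other than DECR1 were lower in both knockdown libraries or overlapped between the groups. ECI2, which works in both mitochondria and peroxisomes, was at 115.7 and 110.4 CPM in shCtrl and at 96 and 91.2 CPM in shIGF2BP3, which is -0.27 on the log2 scale with an edgeR adjusted p of 0.498. ECI1 overlapped between the groups at -0.08.

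All 3 electron transfer genes were lower in both knockdown libraries, as were 23.5% of all genes tested, and none of the 3 passed the thresholds. ETFDH, the ubiquinone oxidoreductase, was at 17.8 and 19.2 CPM in shCtrl and at 14.3 and 13.5 CPM in shIGF2BP3. The difference was -0.41 on the log2 scale (standard error 0.16), at an edgeR adjusted p of 0.475. Before adjustment edgeR's p was 0.0514, just outside the threshold that DECR1 met. It was 0.05 or less with totals without the mitochondrially encoded genes and with limma on FPKM, and on log2(FPKM + 0.1) ETFDH also passed the fold of 1.5. Its transcript ENST00000511912 held 83.6% of the counts in replicate 2 of shCtrl and 98.7% or more in the other libraries. The log2 fold change of that transcript was -0.27, at an edgeR adjusted p of 0.944. ETFA was at 82.6 ± 7.8 CPM in shCtrl and 73.9 ± 1.99 CPM in shIGF2BP3, and ETFB at 86.3 ± 5.44 CPM and 75.8 ± 0.989 CPM (SD, n = 2). Their log2 fold changes were -0.16 and -0.19, with adjusted p of 0.666 and 0.593 by edgeR. ETFB overlaps an unnamed gene on the same strand.

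**Figure D3:**
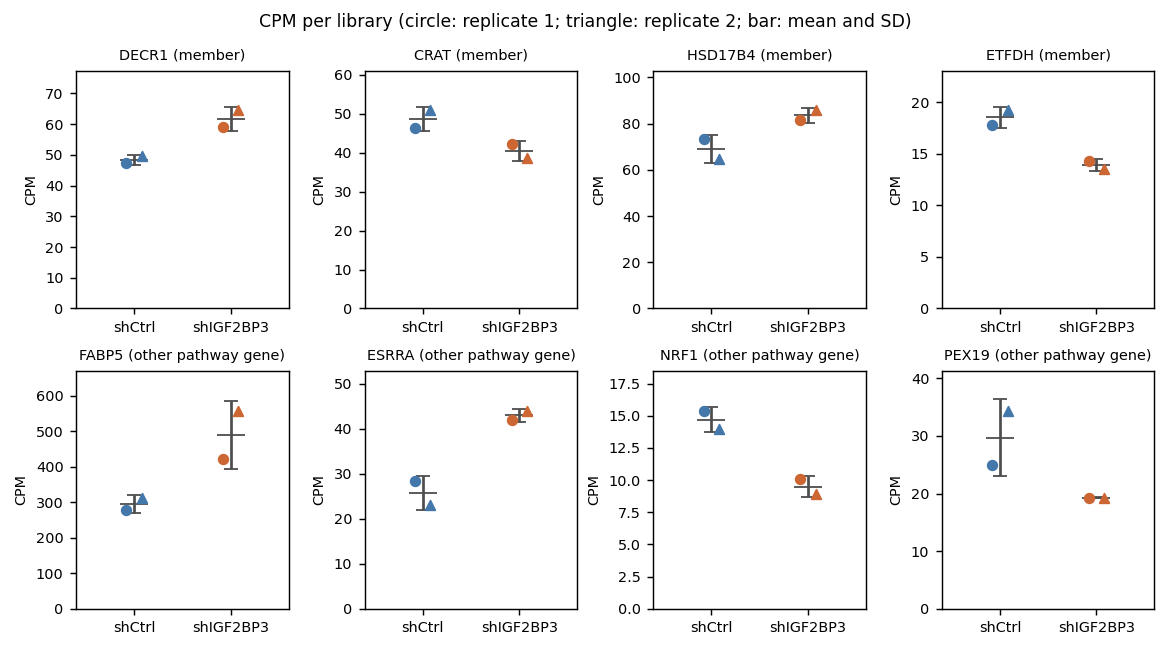
CPM in each library for 4 genes of the set (upper row) and 4 other genes of the pathway (lower row), with the mean and SD of 2 libraries per group and axes from 0. The groups do not overlap for any of the 8 genes, several of which were picked by their p. Of all genes tested, 23.5% were lower and 23.3% higher without overlap. The adjusted p by edgeR was 0.472 or more for all 8.

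In peroxisomes, HSD17B4 and the membrane transporter ABCD3 were higher in both knockdown libraries, EHHADH was lower in both, and the others overlapped. HSD17B4 (ENSG00000133835, chromosome 5 from 119452443 to 119542333) codes for the D-bifunctional protein, which hydrates and dehydrogenates the shortened chains. It was at 73.2 and 64.6 CPM in shCtrl and at 81.4 and 85.8 CPM in shIGF2BP3. The fitted difference was 0.28 on the log2 scale, its 95% interval ran from -0.06 to 0.62, and edgeR gave an adjusted p of 0.511. ABCD3, which imports acyl-CoA into the peroxisome, was at 28.4 ± 2.74 CPM in shCtrl and 32.5 ± 0.567 CPM in shIGF2BP3 (SD, n = 2), with an adjusted p of 0.632 by edgeR.

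EHHADH, the L-bifunctional protein, was the least abundant enzyme of the step, at 7.98 and 7.2 CPM in shCtrl and 6.64 and 6.65 CPM in shIGF2BP3. ACOX3, an oxidase for branched chains, and the thiolase ACAA1 overlapped between the groups with fitted values of -0.11 and -0.05. PEX5, the receptor that brings most enzymes into the peroxisome, varied more between replicates than any other gene of the set. It was at 26.4 and 46 CPM in shCtrl and at 50.4 and 13 CPM in shIGF2BP3, so each group held a high and a low library. Its standard error was 0.63, and its log2 fold change of -0.19 became 0.480 without replicate 2 of shIGF2BP3, 0.269 without replicate 2 of shCtrl and -1.467 without replicate 1 of shIGF2BP3. The last of these passed the fold and p thresholds.

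The deposited table is per transcript, and the gene sums above hide large differences between libraries in estimated counts of transcripts of 1 gene. Such differences also lay between replicates of 1 group. The 33 genes held 238 transcripts, of which 129 passed the low-count filter. By p alone, 9 transcripts were lower and 3 were higher, together 9.3%, where of all transcripts tested 3.88% were lower and 2.69% higher, together 6.57%, and 0 passed an adjusted p of 0.05 by edgeR (smallest adjusted p of 0.419). Of these 12, 5 had no count in either shIGF2BP3 library and 1 had none in either shCtrl library. Of the 31 tested genes with more than 1 transcript, 15 (48.4%) had a different leading transcript in at least 1 library, against 34.7% of all such genes. The leading transcript followed the groups for 0 of the 31, and for 3.04% of all such genes.

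HADH had a different leading transcript in each of the 4 libraries, more than any other gene of the set, and it is described here after its values were seen. Its sum was 40 and 37.8 CPM in shCtrl and 33.7 and 37.7 CPM in shIGF2BP3. ENST00000505878 led in replicate 1 of shCtrl with 39.7% of the counts and ENST00000640060 in replicate 2 with 44.6%. In shIGF2BP3 the leading transcripts were ENST00000638559 in replicate 1 with 35.6% and ENST00000639335 in replicate 2 with 37.1%. Of the 12 transcripts with p of 0.05 or less, 4 were of HADH. ENST00000603302, with the smallest p of the 12, was at 1.62 and 3.2 CPM in shCtrl and at 0.0294 and 0.0368 CPM in shIGF2BP3 (edgeR adjusted p 0.419). ENST00000505878 was at 16.1 and 1.74 CPM in shCtrl and at 0 in both knockdown libraries (edgeR adjusted p 0.645). Its shCtrl mean was 80.9 times a floor of 3 counts per library, and replicate 1 gave most of that mean. The floor covers counting error only and not how counts are apportioned among transcripts, so multiples of it do not bound a fold change. ENST00000638621 was lower as well, at 1.57 and 1.13 CPM against 0.0588 and 0 CPM (edgeR adjusted p 0.537). The other, ENST00000639784, was at 0 in both shCtrl libraries and at 0.676 and 11.4 CPM in shIGF2BP3 (edgeR adjusted p 0.755). Its shIGF2BP3 mean was 69.5 times the same floor, and replicate 2 gave most of that mean.

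ACOT7, the most abundant gene of the set per length, had 3 leading transcripts over the 4 libraries. ENST00000377845 took 72.6% of its counts in replicate 1 of shCtrl and at most 0.361% elsewhere. ENST00000377842 took 75.1% in replicate 2 of shCtrl and 80.4% in replicate 1 of shIGF2BP3. In replicate 2 of shIGF2BP3 another transcript, ENST00000377855, took 81.9%. PEX5 followed the same split of libraries. Its transcript ENST00000266563 was at 34.6 CPM in replicate 2 of shCtrl and 41.5 CPM in replicate 1 of shIGF2BP3, but at 4.75 and 5.07 CPM in the other 2 libraries, and here the gene sum moved with it. The groups did not overlap for 2 other PEX5 transcripts. Of all genes tested, 23.5% were lower and 23.3% higher without overlap, and the share among all transcripts was not computed. ENST00000412720 was at 15.6 and 5.81 CPM in shCtrl and at 0 in both knockdown libraries, with an adjusted p of 0.433 by edgeR. Its shCtrl mean was 97.1 times that floor, which covers counting error only. ENST00000420616 was at 0.837 and 0.552 CPM in shCtrl and at 4.99 and 3.6 CPM in shIGF2BP3, with an adjusted p of 0.459 by edgeR.

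**Figure D4:**
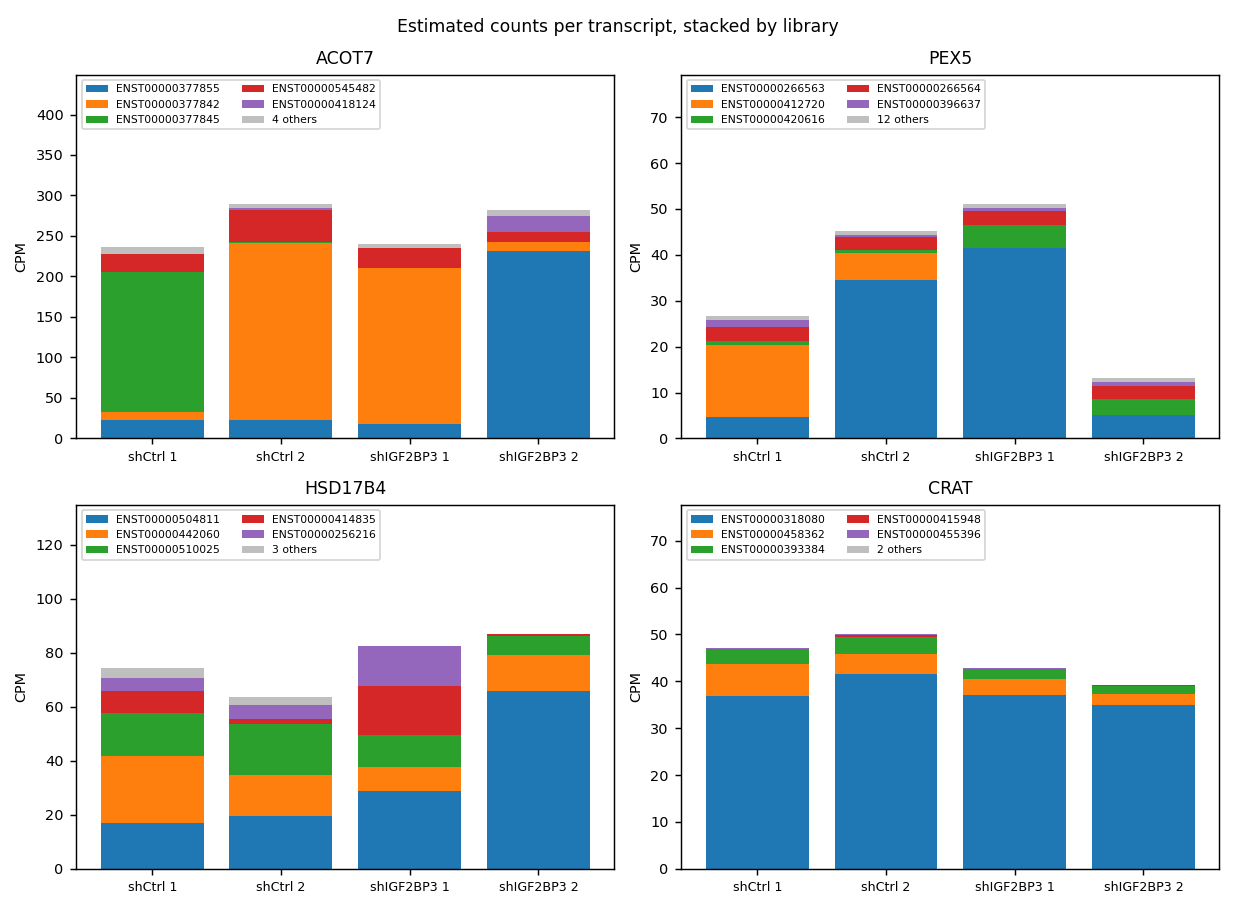
CPM of the 5 transcripts with the highest single-library values, and of all others together, stacked for each library, for ACOT7, PEX5, HSD17B4 and CRAT. The leading ACOT7 transcript differs between replicates of 1 group, while ENST00000318080 leads CRAT in all 4 libraries.

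CRAT and DECR1 were led by 1 transcript throughout. ENST00000318080 took 78.1% and 83% of CRAT in shCtrl and 86.2% and 89.4% in shIGF2BP3, and its own level overlapped between the groups. Both of its next most abundant transcripts were lower without overlap, with no share of all transcripts to set beside this. ENST00000458362 was at 6.83 and 4.27 CPM in shCtrl against 3.5 and 2.35 CPM in shIGF2BP3, and ENST00000393384 at 3.24 and 3.51 CPM against 2.06 and 1.73 CPM, with adjusted p of 0.880 and 0.859 by edgeR. ENST00000220764 took between 59.3% and 79% of DECR1 and was at 32.9 and 31.4 CPM in shCtrl against 35.5 and 51.6 CPM in shIGF2BP3 (adjusted p of 0.895 by edgeR). ECHS1 has a single transcript, and ACSL5 was counted on 1 of 5.

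HSD17B4 was spread over 6 tested transcripts. ENST00000504811 was at 16.8 and 19.4 CPM in shCtrl and at 28.9 and 65.8 CPM in shIGF2BP3, while ENST00000442060 was at 24.9 and 15.2 CPM against 8.61 and 13.4 CPM. ENST00000515320 was at 3.62 and 2.73 CPM in shCtrl and at 0 in both knockdown libraries, and its shCtrl mean was 28.8 times the same floor. None passed an adjusted p of 0.05 by edgeR, and transcripts that share most exons can exchange estimated counts.

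Other genes of the pathway, from a list of 113, gave 109 matches and 95 genes tested. By fold and p together, 2 were higher and 2 were lower, beside 2.54% and 2.78% of all genes tested (5.32% in either direction). Without the limit on the fold 3 were higher and 7 were lower, beside 5.43% and 5.12% (10.5% in either direction), so the list held about as many calls as its size gives at the rate of all genes. None passed an adjusted p of 0.05 by edgeR, and their median log2 fold change was -0.07. FABP5 (chromosome 8), a cytosolic fatty acid binding protein, was at 277.6 and 312.1 CPM in shCtrl and at 421.2 and 557.8 CPM in shIGF2BP3. The difference was 0.73 on the log2 scale (standard error 0.18), with an adjusted p of 0.472 in edgeR and 0.0323 in DESeq2, the lowest of its alternatives, which reached 0.994. FABP5 has close pseudogene copies that could take or give reads.

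ESRRA, the estrogen-related receptor alpha, is a nuclear receptor that drives many genes of fatty acid oxidation. It was at 28.4 and 23.1 CPM in shCtrl and at 41.9 and 44 CPM in shIGF2BP3. The difference was 0.74 on the log2 scale (standard error 0.17), with an adjusted p of 0.472 in edgeR and from 0.0278 (DESeq2) to 0.850 under the alternatives. NRF1, the nuclear respiratory factor, was at 15.4 and 14 CPM in shCtrl and at 10.1 and 8.9 CPM in shIGF2BP3, a log2 fold change of -0.63. PEX19, which inserts peroxisomal membrane proteins and overlaps an unnamed gene on the same strand, was at 25 and 34.4 CPM in shCtrl and at 19.3 and 19.2 CPM in shIGF2BP3, also -0.63. The adjusted p by edgeR was 0.472 for both. ESRRA overlaps TRMT112 on the other strand.

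Neighbouring pathways are given side by side, with no test of the difference between lists. Of all genes tested, 50.2% were below 0. Of 19 tested genes of lipogenesis, 14 were below 0 with a median log2 fold change of -0.18. Of 21 tested genes of the TCA cycle, 17 were below 0 with a median of -0.21. The corresponding values for the oxidation set were 19 of 32 and -0.07.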

How the data were processed

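RNA from 2 shCtrl and 2 shIGF2BP3 samples of H1299 cells was sequenced from mRNA libraries. Per the labels, reads were handled with CASAVA, Trimmomatic, FastQC, HISAT2 and bedtools on GRCh38, and the counter, annotation release, versions and counting strand are not given in the sources used here. For each transcript and library the authors deposited an estimated count in whole numbers, not normalized, and an FPKM value. The count columns number the shIGF2BP3 libraries 2 and 3 where the labels say 1 and 2. They were matched through the library names in the headers of the FPKM files.

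Counts of 95139 transcripts were summed to 20263 genes. Since the table holds no symbols, 18222 genes were named by position where 1 protein-coding RefSeq gene (GRCh38.p14) and 1 Ensembl entry overlapped each other best, sharing 0.5 or more of their joint length and leading any other pair by 0.2. The test was edgeR's quasi-likelihood test (edgeR 4.0.16, R 4.3.3, TMM factors, filterByExpr at a count of 10 and a total of 15, prior count 0.125), with Benjamini-Hochberg adjustment over all genes. Transcripts were fitted in the same way. Standard errors were taken as the log2 fold change over the root of F. Alternatives used DESeq2 1.42.0 and limma 3.58.1. CPM divides counts by the TMM-scaled library size.

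The genes of the set and all lists were chosen with earlier results of these data known. The genes given in full were to be CRAT, those past a fold of 1.5 or at p 0.05 or less before adjustment, and the one with the highest FPKM in each step, together with other pathway genes past both the fold and p. Others were named after their values were seen. Within a group the 2 libraries were further apart than sampling noise (chi-square per degree of freedom 79.1 and 78.6), so both were kept. The steps were tested on simulated data for shIGF2BP3 against shCtrl with 13214 genes. At an adjusted p under 0.05, 20 of 105 genes changed 2-fold and 75 of 90 changed 4-fold were called, with 18 unchanged genes. For 34867 transcripts, 0 of 79 and 0 of 95 were called, so the adjusted transcript test had no power at these folds. Every per-sample column of the files was used.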

Additional observations from a re-analysis of the deposited data

How the results depend on the processing

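The count of genes in the set at an adjusted p under 0.05 was 0 under each alternative run, and 0 transcripts passed under both transcript alternatives. By fold and p together, limma on log2(FPKM + 0.1) called 1 lower gene (ETFDH). The count ran from 0 to 2 lower genes when 1 library was left out, with PEX5 and ACADSB lower without replicate 1 of shIGF2BP3, where the lone library is assumed to vary like the others. Without a fold threshold, 1 gene was higher. In limma without the filter and without a fold threshold, 5 were lower (ACADS, CRAT, ECI2, ETFA and ETFDH) and 1 was higher (DECR1). The share of all genes called by p alone in that limma fit was not computed, so these calls have no rate to be read against. At a fold of 2 and with overlapping genes pooled, both counts were 0. The median log2 fold change of the set, -0.073, moved to -0.153 when library totals were used. In limma it was -0.121 on log2(FPKM + 1), -0.142 on log2(FPKM + 0.1) and -0.112 without the filter. The median of all genes in these 4 fits was -0.081, -0.070, -0.081 and -0.026. With 1 library left out the median of the set ran from -0.135 (without replicate 2 of shCtrl) to -0.031 (without replicate 1 of shIGF2BP3). With the replicate number as a block the median was -0.072 and both counts were 0. The deviations of same-numbered libraries, numbered as in the labels, correlated at 0.022 over all genes. This value cannot tell whether libraries shared a culture or a batch. The block called 772 genes at the fold and p thresholds against 712.

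Over all genes, the 712 calls (340 higher, 372 lower) became 680 with library totals (195 higher, 485 lower), 460 in limma on log2(FPKM + 1), 320 without its filter, and from 583 to 1552 (without replicate 1 of shIGF2BP3) when a library was left out. At an adjusted p under 0.05, edgeR's quasi-likelihood test called 0 genes, DESeq2 160, the exact test 101, and the fit with all genes 17, while limma called 4 on log2(FPKM + 1) and 6 on log2(FPKM + 0.1).

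Signs turned for 12 genes, each with an adjusted p above 0.05. With library totals, ACSL3 was -0.073, ACADVL -0.025, HADHB -0.024, ECHS1 -0.051 and ACAA2 -0.053. With totals without mitochondrially encoded genes, ACSL3 was -0.014, ECHS1 -0.002 and ACAA2 -0.006. On log2(FPKM + 1), ACSL1 was -0.025, HADHB -0.023, ECHS1 -0.037 and ACAA2 -0.108, the same without the filter. On log2(FPKM + 0.1) they were -0.026, -0.024, -0.037 and -0.111. With 1 library left out, ACSL1 ran from -0.048 to 0.335, ACSL3 from -0.167 to 0.251, ACOT7 from -0.191 to 0.140, SLC22A5 from -0.301 to 0.055, SLC25A20 from -0.150 to 0.028, CROT from -0.154 to 0.404, ACADVL from -0.060 to 0.165, ACAA2 from -0.025 to 0.077, ACAA1 from -0.171 to 0.061 and PEX5 from -1.467 to 0.480. The cause was not tested. IGF2BP3 ran from -0.685 to -0.360.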
